A study of Rattus norvegicus with 28 samples.

Results

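The 142 genes described here are those whose RNA level in rat orbitofrontal cortex was lower late than early in withdrawal from self-administered methamphetamine (meth), while their group means after saline self-administration stayed close to equal. They were selected by measured values from 26405 genes, in CPM, a gene's count relative to all gene counts of its library, in parts per 1e6. A gene had to average at least 5 CPM over 16 libraries, to have every day 2 meth library above every day 35 meth library, and to fall by at least 0.25 on the log2 scale of the group means in meth rats. Its log2 change in saline rats had to lie between -0.1 and 0.1.

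The study sequenced poly(A) RNA from tissue punches of Sprague Dawley rats. Meth, a psychostimulant, or saline was self-administered through an intravenous line. Brains were collected on day 2 or day 35 of withdrawal, which the orbitofrontal labels call short and long, the days being those of the design text. The groups were day 2 saline, day 35 saline, day 2 meth and day 35 meth, with 4 libraries each, and every library pooled the tissue of 2 rats. All libraries of a group carried the same sequencing index, so index and group cannot be told apart, and no label ties a library to a training run. Age and sex are not in the labels. Gene counts per library summed to between 20.33 and 48.47 M. They were 20.33 to 23.54 M in day 2 saline and 24.97 to 37.48 M in day 2 meth. At day 35 they were 31.85 to 48.47 M in saline and 36.72 to 43.98 M in meth. Depth therefore differed between the groups and went partly with the day. Of 12 listed central amygdala samples, none was analysed here.

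The orbitofrontal cortex is a frontal region that represents the expected value of rewards and of the cues that predict them. Craving elicited by drug cues is known to grow during the first weeks of abstinence, a process called incubation of craving, and day 2 and day 35 sample its early and late phase. A transcript that falls over such a period can start above the level of saline rats, end below it, or both, and the saline groups show where that level lies. The deposited counts list genes by Ensembl identifier only, and none could be paired with a symbol (0 of 26405 in the RefSeq table used). The genes are therefore ordered by their pattern and not by function, 4 are followed by identifier, and lists of cell type markers and pathways could not be applied.

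Of the 26405 genes, 11012 reached 5 CPM. In 836 of these, 7.59%, every day 2 meth library lay above every day 35 meth library, and 217 of them also fell by the required amount. The saline condition removed 75 of the 217, 55 because the gene also fell in saline rats by more than 0.1 on the log2 scale and 20 because it rose by more than that. The edges of the selection were crowded. The genes just inside and just outside the fall had log2 changes of -0.2507 and -0.2494, those at the level limit had means of 5.007 and 4.993 CPM, and those at the saline limits changed by 0.0981 and 0.102 on the upper side and by -0.09927 and -0.1025 on the lower side. The lowest day 2 meth library of the gene nearest the separation limit stood 0.001318 above the highest day 35 meth library on the log2 scale, and that of the nearest gene outside differed from it by -0.001284. Libraries scaled by TMM (a factor that removes differences in RNA composition) gave 122 genes, 115 of them among the 142.

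**Figure D1:**
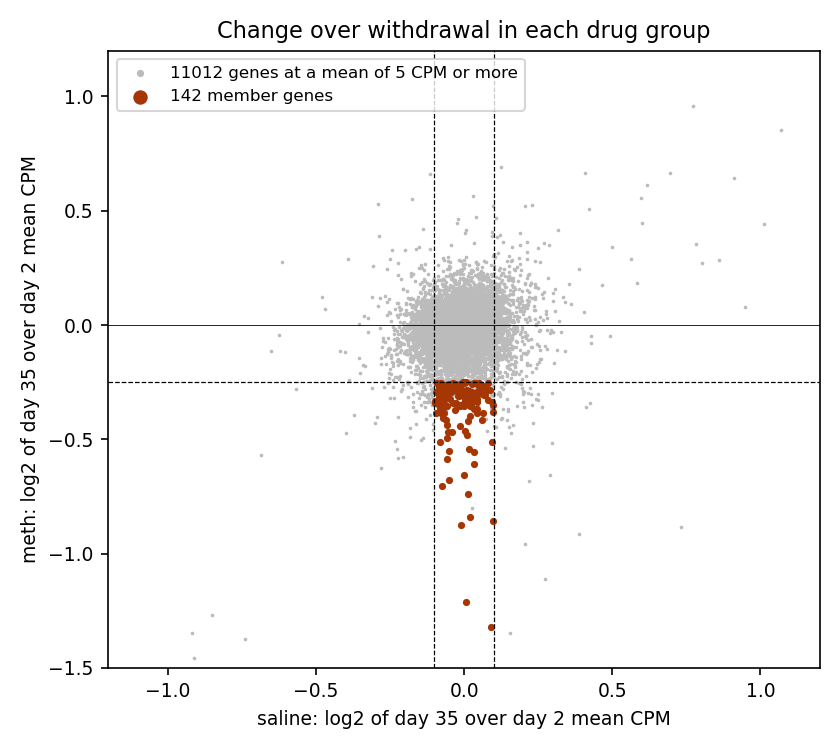
Log2 of the day 35 over the day 2 group mean CPM in saline rats (x axis) and in meth rats (y axis) for the 11012 genes at 5 CPM or more (grey) and the 142 selected genes (dark red), with the selection limits of -0.25 and ±0.1 as dashed lines. The selected genes fill the column under the origin, most of them close to its upper edge and 2 of them below -1; 4 grey genes lie outside the plotted range.

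Most of the 142 falls were small. The median fall was 1.24-fold from day 2 to day 35 (quartiles 1.22 and 1.29), 16 genes fell by more than 0.5 on the log2 scale, 11 by more than 1.5-fold, and the largest fall was 2.50-fold. The genes were of moderate abundance, with a median of 16.7 CPM against 33.8 CPM for all genes at 5 CPM or more. Of the 142, 44 had a mean under 10 CPM and 10 a mean of 100 CPM or more. Together they took 0.567 to 0.762% of the gene counts of a library. The smallest count of any of them in a library was 56. Bulk tissue cannot tell fewer cells of a type from less RNA per cell, and this applies to all values that follow.

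The level of the 142 genes in each library shows how the groups were arranged. Relative to the mean of the 8 saline libraries, the median gene stood at 0.14, 0.18, 0.15 and 0.26 on the log2 scale in day 2 meth replicates 1 to 4. In day 35 meth replicates 5 to 8 it stood at -0.13, -0.11, -0.17 and -0.14. All 4 day 2 meth libraries were thus above, and all 4 day 35 meth libraries below, the saline mean, an order to which the selection contributes. The saline libraries, whose separate values were not part of the selection, ranged from -0.01 to 0.04 at day 2 (replicates 13 to 16) and from -0.05 to 0.07 at day 35 (replicates 9 to 12). Day 35 saline replicate 9 was the highest of its group for 71 of the 142 genes, and day 2 meth replicate 4 was the highest of its group for 87. The shares over all genes are not given, so these counts do not set the 142 apart. Without replicate 4 the same selection gave 133 genes, 116 of them among the 142, and without replicate 9 it gave 125, 112 of them among the 142.

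**Figure D2:**
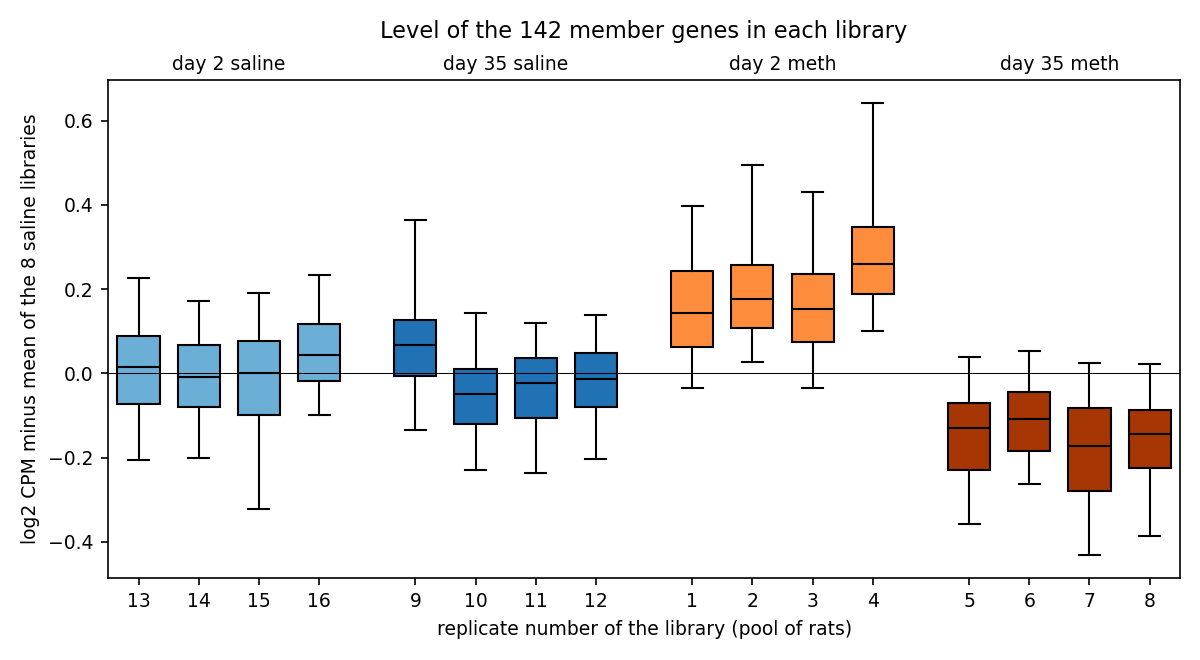
Log2 CPM of the 142 genes minus each gene's mean over the 8 saline libraries (y axis) in each of the 16 libraries (x axis, replicate numbers of the labels, grouped by drug and day). Boxes give the quartiles and the median and whiskers the 5th and 95th percentiles; day 2 meth medians lie between 0.14 and 0.26, day 35 meth medians between -0.17 and -0.11 and saline medians between -0.05 and 0.07.

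ENSRNOG00000003357 had the largest fall of the 142. It was counted at 7.21, 11.9, 8.22 and 14.1 CPM in day 2 meth replicates 1 to 4 and at 4.65, 4.75, 3.53 and 3.68 CPM in day 35 meth replicates 5 to 8. Saline libraries held 6.44, 6.99, 4.29 and 8.50 CPM at day 2 (replicates 13 to 16) and 9.57, 7.24, 6.47 and 4.65 CPM at day 35 (replicates 9 to 12). The meth groups were apart by selection, and the saline libraries overlapped both of them. The group means were 10.4 ± 3.20 CPM (SD, n = 4) in day 2 meth, 4.15 ± 0.640 in day 35 meth, 6.55 ± 1.74 in day 2 saline and 6.98 ± 2.04 in day 35 saline, a 2.50-fold fall in meth rats. The day 2 meth libraries spread widely, replicates 1 and 3 lying within the saline range and replicates 2 and 4 above it.

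ENSRNOG00000003897, with the next largest fall, repeated this pattern library by library. Its values were 6.37, 9.74, 5.87 and 12.0 CPM in day 2 meth replicates 1 to 4 and 3.52, 4.16, 3.91 and 3.08 CPM in day 35 meth replicates 5 to 8. In saline rats it was counted at 6.25, 6.21, 4.33 and 6.29 CPM at day 2 (replicates 13 to 16) and at 8.56, 5.76, 4.83 and 4.01 CPM at day 35 (replicates 9 to 12). Again replicates 2 and 4 of day 2 meth and replicate 9 of day 35 saline were the high libraries. The means were 8.50 ± 2.92 and 3.67 ± 0.474 CPM in day 2 and day 35 meth and 5.77 ± 0.959 and 5.79 ± 1.98 CPM in day 2 and day 35 saline (SD, n = 4 each), a 2.32-fold fall in meth rats. Both genes lay in saline rats about midway between the meth groups on the log2 scale, at 0.534 and 0.541 of the way from the day 35 to the day 2 meth mean.

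ENSRNOG00000012404, the gene with the largest average difference between meth and saline, showed another arrangement. It was counted at 36.6, 39.3, 38.1 and 39.7 CPM in day 2 meth replicates 1 to 4, and at 23.2, 27.7, 24.8 and 25.03 CPM in day 35 meth replicates 5 to 8. Saline libraries held 23.7, 22.9, 26.0 and 24.9 CPM at day 2 and 25.1, 22.1, 26.7 and 25.9 CPM at day 35. The day 2 meth libraries stood alone above all others, and the remaining groups overlapped. Its saline mean lay just below the day 35 meth mean, at -0.049 on the same scale.

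ENSRNOG00000005809 was similar at a lower level. It was counted at 11.2, 10.3, 10.2 and 11.4 CPM in day 2 meth replicates 1 to 4, and at 7.91, 8.56, 8.64 and 9.59 CPM in day 35 meth replicates 5 to 8. Day 2 saline held 8.07, 7.98, 7.69 and 9.60 CPM and day 35 saline 7.72, 7.79, 8.85 and 7.50 CPM. All 4 day 2 meth libraries were above all 8 saline libraries, and the day 35 meth libraries overlapped the saline ones. The fall in meth rats was 1.24-fold, the median of the 142.

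**Figure D3:**
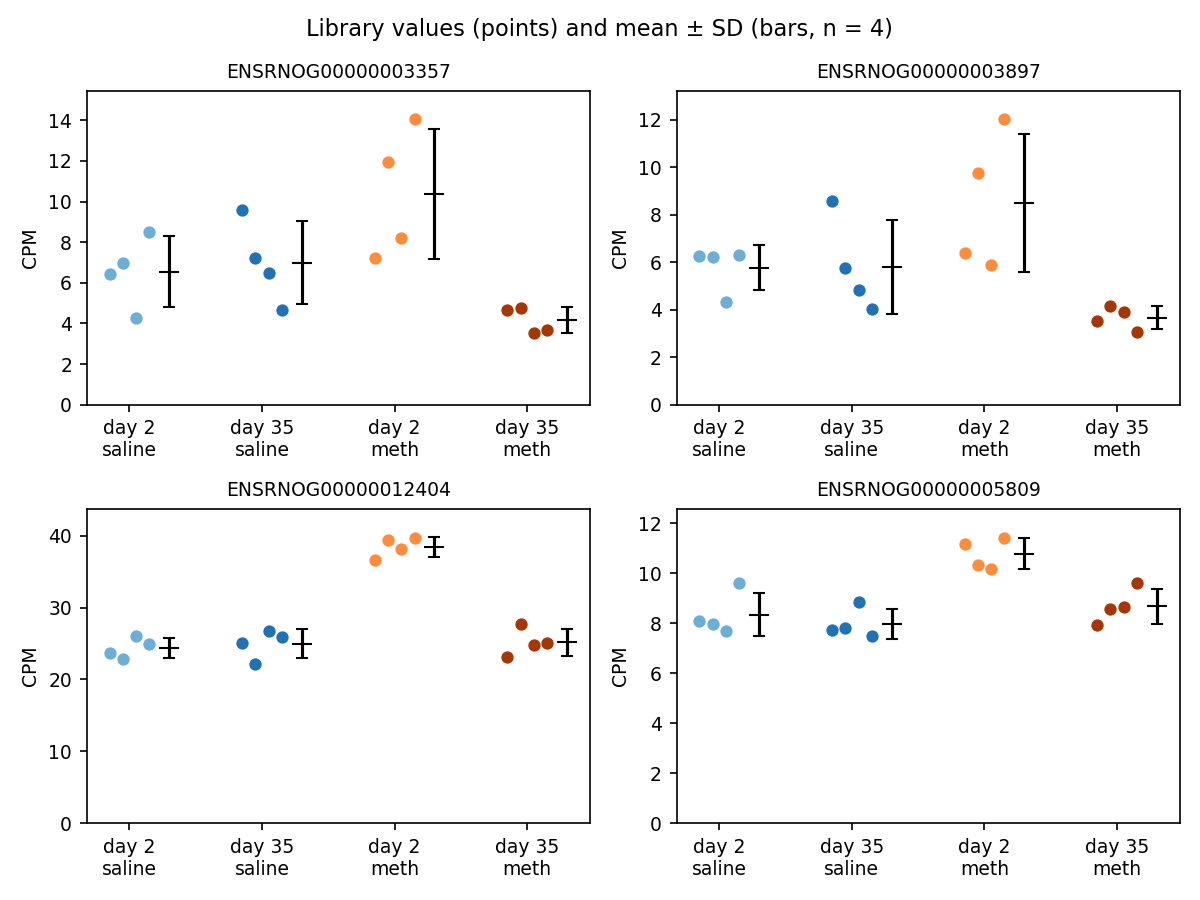
CPM (y axis, from 0) of the 4 genes followed by identifier in the 16 libraries, by group (x axis); points are libraries and bars the mean ± SD of 4. In the upper panels the saline libraries lie between and across the meth groups, and in the lower panels the day 2 meth libraries lie above every saline library.

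Whether the fall starts above or ends below the saline level was asked with the difference between meth and saline averaged over both days. With 4 libraries in each group this contrast is built from sums of the day means, while the selection used their differences, so the selection is independent of it only if both meth groups vary alike. The 142 genes had a median SD of log2 CPM between libraries of 0.105 in day 2 meth and 0.0874 in day 35 meth (0.0645 and 0.0591 for all genes at 5 CPM or more). With the wider spread at day 2, selecting on the difference can tilt the average towards higher values in meth rats. The p-values below take no account of this, and the counts of higher and lower genes are a description. All 142 genes passed the filter on low counts and were tested. The 15413 genes tested include genes under 5 CPM, while 11012 genes reached that level. Shares of all genes tested, here and below, therefore mix abundance with membership. Called shares among genes at 5 CPM or more are not given. On average over both days 85 of the 142 were higher in meth rats, 59.9% against 50.3% of all genes tested, with a median log2 fold change of 0.01 against 0.00047 for all. Only ENSRNOG00000012404 passed the threshold, at 0.34 on the log2 scale (SE 0.045), with an adjusted p of 0.0082 by the quasi-likelihood test of edgeR; 0.00649% of all genes were called higher and 0.00649% lower. DESeq2 called 5 of the 142, with its share of all genes not given. With replicate 4 of day 2 meth and replicate 13 of day 2 saline both left out, edgeR called 0, and this gene had an adjusted p of 0.10. ENSRNOG00000005809 had 0.25 (SE 0.057, edgeR adjusted p = 0.30, DESeq2 adjusted p = 0.044), and the pair with the largest falls had -0.04 (SE 0.19) and -0.05 (SE 0.18), both with an edgeR adjusted p of 0.98.

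At an unadjusted edgeR p under 0.05, 18 of the 142 genes were higher in meth rats on average, 12.7% against 3.8% of all genes tested, and 0 were lower, against 3.09% of all genes. All genes tested include genes under 5 CPM, so these shares are not matched for abundance. DESeq2 gave 18 and 0, and limma-voom 18 and 1, and their shares of all genes are not given. These 18 genes had average log2 fold changes of 0.09 to 0.34 (median 0.14), had a median of 31.2 CPM against 16.7 CPM for all 142, and in saline rats lay at a median of 0.103 of the way from the day 35 to the day 2 meth mean. The lower genes numbered 5 without day 2 meth replicate 4, and 3 without day 2 saline replicate 14, without day 35 saline replicate 10 or without day 35 saline replicate 11. They numbered 2 without day 2 saline replicate 15 or day 35 meth replicate 6, 1 without day 2 meth replicate 1, day 2 meth replicate 2, day 2 saline replicate 13 or day 35 saline replicate 12, and 2 with sequencing lane as a replicate block. The higher genes stayed between 15 and 24 in number over the 16 fits that left out 1 library. Apart from ENSRNOG00000012404 the lowest edgeR adjusted p of the 142 was 0.24.

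**Figure D4:**
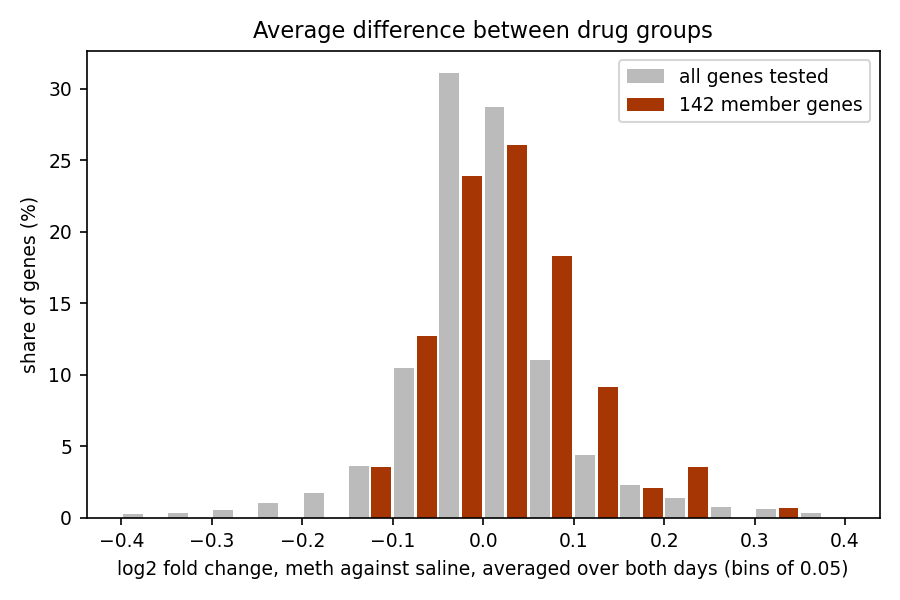
Share of genes (y axis, percent) by log2 fold change between meth and saline averaged over both days (x axis, bins of 0.05) for the 142 selected genes (dark red, right bar of each bin) and all genes tested (grey, left bar; 217 beyond ±0.4 are not drawn). The red bars stand at 18.3% and 9.15% in the bins starting at 0.05 and 0.1, where the grey ones stand at 11% and 4.41%, and no selected gene lies under -0.15.

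By the position of their saline level, the 142 genes were spread between these arrangements. For 34 genes the saline mean lay under 0.25 of the way from day 35 meth to day 2 meth (5 of them below the day 35 meth mean), for 101 between 0.25 and 0.75, and for 7 over 0.75 (1 of them above the day 2 meth mean). The 34 genes had a median log2 difference between meth and saline of 0.28 at day 2 and -0.05 at day 35. For the 101 genes these medians were 0.16 and -0.16, and for the 7 genes 0.05 and -0.25. In 24 of the 142 genes every day 2 meth library was above all 8 saline libraries, against 0.863% of the genes at 5 CPM or more, and in 19 every day 35 meth library was below all 8, against 0.672%. Of the 142 genes 0 did both, as did 0% of the 11012 genes at 5 CPM or more, so this does not set the 142 apart. Against the saline libraries of the same day, 40 genes were apart at day 2 (2.45% of all) and 31 at day 35 (1.93%). Selection for high day 2 and low day 35 meth values favours both counts, so they describe the genes and test nothing. The 24 genes had a median of 35.2 CPM and included 15 of the 18 genes higher on average, and the 19 genes had a median of 24.5 CPM and included 0 of them.

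The comparisons that share their libraries with the selection are given as description. Between day 35 and day 2 in meth rats, edgeR called 82 of the 142 genes lower, where 1.38% of all genes tested were called lower. At an unadjusted p under 0.05 the share of all genes was 9.46%. The 82 were 57.7% of the selection and 38.5% of the 213 genes called lower in that comparison. Of the 131 called genes outside the selection, 70 changed by more than 0.1 in saline rats, 56 fell by less than 0.25, and for 2 the meth ranges overlapped; 38 of the 213 were under 5 CPM. The 60 uncalled members were less abundant than the 82 (median 9.94 against 26.5 CPM) and spread more between libraries of a group (median SD of log2 CPM 0.141 against 0.0938), while their falls were similar (median -0.30 against -0.33 on the log2 scale). The count was 39 without day 2 meth replicate 4, 42 without day 35 meth replicate 7, 48 without day 35 meth replicate 5, 52 without day 2 meth replicate 2 or day 35 meth replicate 6, and 54 without day 35 meth replicate 8.

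The direct test of whether the change over withdrawal differed between meth and saline rats called 11 of the 142 genes, against 0.123% of all genes tested in that direction, and 119 at an unadjusted p under 0.05, against 5.94%. The genes were selected on both parts of this difference, so the counts and their distance from the shares of all genes are a description. The word only in the name of the selection therefore rests on its limits for the group means, and for 131 of the 142 genes a difference between the drug groups was not called. The 11 genes included ENSRNOG00000012404 and 1 other gene among the 16 falling by more than 0.5. ENSRNOG00000003357 had the largest difference of effects of the 142, -1.44, but its SE was 0.37 and it was not among the 11. With sequencing lane as a replicate block 3 genes were called, with DESeq2 26, and without any 1 library 10 (without day 2 meth replicate 1) or 0 to 6 (each of the other 15; 0 without day 2 saline replicate 14). The share of 0.123% belongs to the main edgeR fit, and shares for these other fits are not given.

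At day 2, edgeR called 9 of the 142 genes higher in meth than in saline rats, against 0.0843% of all genes, and 79 at an unadjusted p under 0.05, against 5.95%. All 142 fold changes were positive (median 0.18), as were 51.5% of all. The count was 5 without day 2 meth replicate 2 or replicate 4. At day 35, edgeR, DESeq2 and limma-voom called 0 of the 142, and edgeR called 0% of all genes tested, so this count does not set the 142 apart. Of the 142, 64 were lower at an unadjusted edgeR p under 0.05, against 3.37% of all genes. The day 35 fold changes were positive for 6 of the 142 genes (median -0.14), against 49.2% of all. Selection for high day 2 and low day 35 meth values favours these counts at both days, so they are a description and test nothing.

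The most abundant of the 142 genes is described by its level, which singles it out whatever its change. It stood at 1617, 1700, 1779 and 1850 CPM in day 2 meth replicates 1 to 4, and at 1390, 1421, 1360 and 1381 CPM in day 35 meth replicates 5 to 8. Saline libraries held 1445 to 1493 CPM at day 2 and 1397 to 1620 CPM at day 35. The day 2 meth libraries were apart from the day 2 saline libraries and met the day 35 saline range at its upper end, in replicate 9. All 10 genes with a mean of 100 CPM or more were called lower between the days in meth rats, against 1.38% of all genes tested, in the comparison the selection used. They fell by 0.25 to 0.38 on the log2 scale, and 5 of them had every day 2 meth library above all 8 saline libraries, against 0.863% of the genes at 5 CPM or more.

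Variation between replicate pools within a group is a feature that the group means do not fix. The selection asks for separate meth ranges, which favours little spread in meth rats. Its minimum fall between means of 4 libraries can favour genes that spread widely. It puts no direct limit on the spread in saline rats. The median SD of log2 CPM of the selected genes was 0.105 in day 2 meth, 0.0874 in day 35 meth, 0.114 in day 2 saline and 0.113 in day 35 saline, against 0.0645, 0.0591, 0.0788 and 0.0705 for all genes at 5 CPM or more. Low counts raise such an SD, so genes between 10 and 30 CPM were compared as well. There the 57 selected genes had 0.127 in day 2 saline and 0.117 in day 35 saline, against 0.0956 and 0.0840 for the 3505 genes of that range. In day 2 and day 35 meth the selected genes of that range had 0.1 and 0.0982, against 0.0777 and 0.0727. The wider spread was thus found in both drug groups. No test of these differences was made, and the part of the selection in them was not tested.

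The 142 genes also tended to vary together. Each library's deviation from its group mean was taken on the log2 scale, and genes were correlated over the 16 libraries, which leaves 12 degrees of freedom. The mean correlation over the 10011 pairs of selected genes was 0.122, against 0.0178 for all genes at 5 CPM or more, and 0.135 against 0.0167 between 10 and 30 CPM. It was 0.160 in the 8 meth and 0.0924 in the 8 saline libraries, where all genes had 0.0180 and 0.0178. A correlation of 0.7 or more was found for 208 pairs and one of -0.7 or less for 26, with no share over all gene pairs beside them. Day 2 meth replicate 4 lay above its group mean in 118 and day 35 saline replicate 9 in 111 of the 142 genes. The median deviations in these libraries were 0.0704 and 0.075 for the 142 genes, against -0.00312 and -0.00321 for all genes. Leaving out any 1 library gave mean correlations of 0.0926 to 0.132. All pairs share the libraries and their depth. The selected genes also all change in the same direction in meth rats, which favours positive correlations among them, while all genes include both directions. The selection thus contributes to the difference from all genes, and these values are a description of the 16 libraries.

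**Figure D5:**
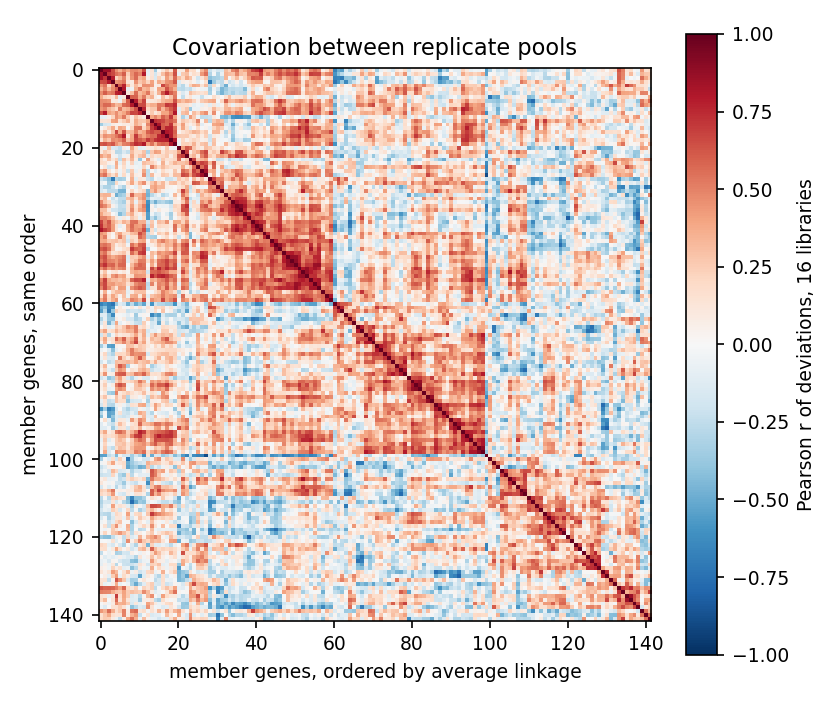
Pearson correlation of the deviations from the group means over 16 libraries (colour, from -1 to 1) for every pair of the 142 selected genes, both axes listing the genes in the order of an average-linkage tree. Blocks of positive correlation lie along the diagonal, and genes of different blocks are weakly or negatively correlated; the mean over all pairs is 0.122.

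The pair with the largest falls varied together most closely among the 4 genes followed. Deviations of ENSRNOG00000003357 and ENSRNOG00000003897 correlated with r = 0.89 and rho = 0.91 over the 16 libraries (permutation within groups, 100000 draws, two-sided p = 0.00059 and 0.00070, adjusted over the 6 pairs of the 4 genes 0.0035 and 0.0042). The pair was chosen by its falls in the same meth libraries, and the permutation assumes no variation shared between genes. The p-values take no account of either and are a description. The correlation was 0.86 in the 8 meth and 0.92 in the 8 saline libraries, and 0.86 without the 2 libraries farthest from the median. The other 5 pairs had r between -0.041 and 0.24 and adjusted permutation p-values of 0.85 or more (rho 0.024 to 0.27, adjusted p 0.80 or more). In the 8 meth libraries ENSRNOG00000012404 had r = 0.46 and 0.52 with the pair, and in the 8 saline libraries r = -0.39 and -0.42.

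Among the other members, 8 had a correlation of 0.7 or more with at least 1 gene of the pair and 5 with both. These 8 and the pair fell by 0.26 to 1.32 on the log2 scale (median 0.50), and their saline level lay near the middle of the meth groups (median position 0.534). In 9 of these 10 genes day 2 meth replicate 4 was the highest of its group, and in 9 day 35 saline replicate 9 was the highest of its group. Both genes of the pair were highest in these libraries and the 8 were chosen by correlation with it, so these counts follow largely from the choice. ENSRNOG00000003357 reached 0.7 with 4.96% of the other selected genes and with 0.69% of all genes at 5 CPM or more, and ENSRNOG00000003897 with 5.67% and 1.23%. For ENSRNOG00000012404 the shares were 2.13% and 0.291%, and for ENSRNOG00000005809 0.709% and 0.354%. By position, the mean pairwise correlation was 0.0465 among the 34 genes whose saline level lay near day 35 meth, 0.158 among the 101 in the middle and 0.015 among the 7 near day 2 meth. It was 0.273 among the 19 genes with every day 35 meth library below all saline libraries and 0.051 among the 24 with every day 2 meth library above them.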

How the data were processed

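RNA-seq of 16 orbitofrontal libraries was used. The deposited files hold unnormalized counts of reads per gene. Per the submitters' processing notes, the authors used TopHat, HTSeq, limma and the rn4 build; their versions, annotation and strand setting are not stated there. The 5 HTSeq summary rows, 31.13 to 32.61% of reads, were left out. The genes and lists were chosen with earlier results of these data known. Genes passing filterByExpr (15413) were fitted with edgeR 4.0.16 (TMM factors 0.985 to 1.018, 4 group means, robust glmQLFit and glmQLFTest, R 4.3.3), with Benjamini-Hochberg adjustment over all of them and a threshold of 0.05. Each SE was taken as log2 fold change over the root of the F statistic. CPM use unscaled gene totals. The pipeline was checked on simulated data. The fits were repeated with lane as a replicate block, with DESeq2 1.42.0 and with voom of limma 3.58.1, without the filter, with median-ratio size factors and without single libraries, and the selection with other limits. The named genes are the 2 largest falls and the 2 largest average differences, a longer rule having been shortened to 4 identifiers because no symbols could be matched; gene lists and marker lists were not run for the same reason. Lane is shared by 1 library of each group in the labels; deviations of the 24 same-lane pairs correlated by 0.041 on average (-0.39 to 0.36) and those of the 72 other pairs by -0.014. P-values measure the spread between pools of 2 rats. No coordinates or sequences are given.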

Additional observations from a re-analysis of the deposited data

Results flagged for a closer look

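In 3 of 24 groups of 4 values the extreme library was far from its neighbours; about 1 such group in 20 arises by chance. Day 2 meth replicate 1 had 24.97 M and day 2 saline replicate 13 had 20.33 M gene counts, each the lowest of its group. ENSRNOG00000003897 stood at 4.33 CPM in day 2 saline replicate 15, against 6.21 to 6.29 CPM in the other 3 libraries. In the test of whether the change over withdrawal differed between meth and saline rats, edgeR called 11 of the 142 genes, against 0.123% of all genes tested, and the genes were selected on that difference. The count was 3 with lane as a replicate block, 0 to 10 without 1 library, and 0 with replicate 4 of day 2 meth and replicate 13 of day 2 saline both left out.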

How the results depend on the processing

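The selection gave 216 genes at a minimum of 1 CPM, 226 with a fall of at least 0.2, 84 with a fall of at least 0.3, 72 with a saline band of 0.05, and 120 to 192 without 1 library. The count called on average between meth and saline was 1 without any 1 library, 5 with DESeq2 and 0 when a pair of libraries was left out (replicate 4 of day 2 meth, replicate 13 of day 2 saline), an alternative added after seeing the data; in that fit ENSRNOG00000012404 had an adjusted p of 0.10 (8.4e-08 with DESeq2). ENSRNOG00000005809 passed with DESeq2 (adjusted p = 0.044). Genes lower on average at an unadjusted p numbered 1 with limma-voom, 1 with median-ratio size factors, 2 with lane as a replicate block, 3 without both libraries and 0 to 5 without 1. Genes called between days in meth rats numbered 39 to 84 without 1 library and 39 without both. The difference of effects gave 26 genes with DESeq2, 5 with limma-voom, 5 with median-ratio size factors, 3 with the replicate block, 0 without both libraries and 0 to 10 without 1. At day 2 DESeq2 called 16, and 4 remained in number without both libraries and 5 to 10 without 1. The average fold change of ENSRNOG00000003357 ranged from -0.135 to 0.0635 and that of ENSRNOG00000003897 from -0.159 to 0.0888 without 1 library, changing sign in 4 and 3 fits. The cause of these shifts was not tested, and shares over all genes are given for the main edgeR fit only. The replicate block changed no other call by more than 1.5 times.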

Other observations

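The same limits applied in the other directions found fewer genes. Rising over withdrawal in meth rats with a flat saline mean were 18 genes, against the 142 that fell. With the drug groups exchanged, 6 genes fell and 6 rose in saline rats with a flat meth mean. Separate ranges are harder to meet where libraries spread more. The median SD of log2 CPM of all genes at 5 CPM or more was 0.0788 and 0.0705 in day 2 and day 35 saline. It was 0.0645 and 0.0591 in day 2 and day 35 meth. Day 2 saline also had the lowest depth, 20.33 to 23.54 M. The part of spread and depth was not tested. The numbers of genes found are a description, and no test of their difference was made.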
